A study of Mus musculus with 8 samples.

Results

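Proteasome genes were the 48 mouse genes whose symbol is Psm, a letter from a to g and a number with nothing after it. All 48, of 20659 genes with a named probe, were on the array, with 59 probes between them, and where a gene had several probes the probe of highest mean signal stood for it. Of the 48, 47 passed the filter on dim probes, and the exception, Psmb11, was not well above background on any array. By role they were 7 subunits of the alpha ring and 7 of the beta ring of the 20S core, 3 immunoproteasome subunits, 2 germ cell or thymus forms, 6 ATPases and 11 other subunits of the 19S cap, 5 activators or inhibitors and 7 assembly chaperones.

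RNA levels in the heart muscle (myocardium) of untreated male mice were measured on 8 one-colour arrays, with total RNA amplified and labelled with the dye Cy3. The labels give 3 arrays the genotype NPRA-/- and 5 the genotype NPRA+/+, the wild type. NPRA, encoded by Npr1, binds the atrial and B-type natriuretic peptides and makes cyclic GMP. The NPRA-/- mice derive from a conditional line, NprA flox/flox, and the series title calls the loss cardiac-specific; the sources used here give no Cre driver, no ages and no animal for any sample. No agent was given to either genotype. The series' design text names an m6A array, while the labelling protocol is that of gene expression, so each signal is read here as a transcript level. Without a label that ties samples to animals, p-values reflect only how far these samples spread, which may in part be technical.

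The proteasome is the barrel-shaped protease that degrades ubiquitin-tagged proteins. A 20S core of stacked alpha and beta rings holds the cutting sites, and a 19S cap recognises, unfolds and feeds in the substrate; other activators can take the place of the cap. In heart muscle it turns over contractile and regulatory proteins. When subunits run short the transcription factor NFE2L1 raises their genes together, in part through antioxidant response elements, and interferon gamma induces the immunoproteasome subunits Psmb8, Psmb9 and Psmb10, which replace the catalytic subunits Psmb5, Psmb6 and Psmb7.

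Promoters of catalytic subunits and of the subunits that replace them are shown because these 2 forms of control are known for these genes. Each line gives the 250 bases before the start of transcription, from RefSeq (build GRCm38.p6), 5′ to 3′ in the direction of the gene, with motif matches in capitals. Psmb5 is at chr14:54617996-54618245 (minus strand) and Psmb6 at chr11:70525107-70525356 (plus strand). Their replacements are Psmb8 at chr17:34197945-34198194 (plus strand) and Psmb9 at chr17:34187331-34187580 (minus strand).
Psmb5: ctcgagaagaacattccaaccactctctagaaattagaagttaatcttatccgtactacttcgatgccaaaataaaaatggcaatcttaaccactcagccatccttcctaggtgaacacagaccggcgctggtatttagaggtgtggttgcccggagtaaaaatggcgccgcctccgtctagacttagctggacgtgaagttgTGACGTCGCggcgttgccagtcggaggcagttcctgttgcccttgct
Psmb8: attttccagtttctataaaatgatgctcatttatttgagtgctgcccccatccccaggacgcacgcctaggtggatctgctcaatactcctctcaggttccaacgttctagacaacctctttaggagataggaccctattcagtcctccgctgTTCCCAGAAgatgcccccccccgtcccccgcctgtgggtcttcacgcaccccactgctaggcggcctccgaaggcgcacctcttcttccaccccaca
Psmb6: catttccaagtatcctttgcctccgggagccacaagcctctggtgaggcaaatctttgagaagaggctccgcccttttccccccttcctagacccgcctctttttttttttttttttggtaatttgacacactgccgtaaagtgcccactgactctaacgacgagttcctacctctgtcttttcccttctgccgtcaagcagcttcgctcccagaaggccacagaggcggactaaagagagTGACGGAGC
Psmb9: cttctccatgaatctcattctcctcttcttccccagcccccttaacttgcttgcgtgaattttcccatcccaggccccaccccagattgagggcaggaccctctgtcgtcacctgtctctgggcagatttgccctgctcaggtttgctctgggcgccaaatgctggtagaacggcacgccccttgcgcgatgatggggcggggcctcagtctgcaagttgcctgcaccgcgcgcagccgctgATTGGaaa

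The motifs searched, on both strands, were the core of the antioxidant response element (TGACNNNGC), the CCAAT box (CCAAT), the core of the interferon-stimulated response element and the gamma-activated site (TTCNNNGAA). The table held 43 promoters for 40 of the 48 genes; Psma8, Psmb1, Psmb2, Psmb7, Psmc3, Psmd3, Psmd7 and Psmg2 had no entry. The window of Psmb10 held none of the 4 motifs, and it is not shown. Psmb5 held an antioxidant response core (TGACGTCGC) from -47 to -39 and Psmb6 one (TGACGGAGC) from -9 to -1, counted from the start. Psmb8 held a gamma-activated site (TTCCCAGAA) from -97 to -89, and Psmb9 a CCAAT box read on the other strand (ATTGG) from -8 to -4. The antioxidant response core was in 5 of the 43 promoters (11.6%), those of Psmb5, Psmb6, Psmc6, Psmd9 and Psmd12, and in 10.2% of all 32851 promoters. The CCAAT box was in 14 (32.6%, against 33.8% of all), the gamma-activated site in 2 (4.65%, against 7.0%) and the interferon-stimulated core in 3 (6.98%, against 3.0%), those of Psmb3, Psmd4 and Psmd9. In these 43 windows no match of 1 motif overlapped a match of another. These are matches of letters, not sites shown to be bound.

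Across the 8 arrays, 79.5% to 92.6% of probes were well above background and none (0) was saturated, and correlations between arrays lay between 0.944 and 0.994. The arrays were scanned on 4 days and carried 6 distinct scan times, each shared only by arrays of 1 genotype. Arrays of the same scan time were treated as 1 slide, which is inferred from the time alone. Scan day 1 held NPRA-/- replicates 2 and 3 and NPRA+/+ replicates 2 and 3, while NPRA-/- replicate 1 and NPRA+/+ replicate 1 each had a day of their own. Within scan day 1 each genotype had a scan time of its own. Genotype and scan time therefore cannot be told apart in any value given for that day alone. The single Npr1 probe gave log2 signals of -6.42, -5.53 and -5.59 in NPRA-/- and of -4.77, -6.14, -6.55, -6.00 and -5.93 in NPRA+/+, so the groups overlapped. It cleared the background threshold on 2 of the 3 and 4 of the 5 arrays, and whether the probe lies in the deleted part is not given, so Npr1 does not check the labels. Here and below, a log2 signal is relative to the array's 75th percentile and values are in replicate order. All 10 cardiomyocyte markers, such as Myh6 and Tnnt2, were well above background on all arrays. Their summed signal, as multiples of the 75th percentile, spanned 865 to 2210 in NPRA-/- and 457 to 1770 in NPRA+/+. Each sample is a piece of tissue, so fewer cells of a type and less RNA per cell cannot be told apart.

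No proteasome gene differed between the genotypes at an adjusted p under 0.05 (limma, 0 of 47 in either direction, smallest adjusted p = 0.129). Of all 35329 probes tested, 123 did (0.348%). Unadjusted, 2 genes, Psmc3 and Psmf1, had a p under 0.05 with the higher level in NPRA-/- and 0 with the lower, against 18.3% and 1.36% of all probes. Most proteasome probes were bright, 39 of 47 being in the brightest 20% of probes tested, where 3.74% of probes had an unadjusted p under 0.05 in either direction. The 4 genes whose genotypes did not overlap, Psmc3, Psmd4, Psme2 and Psmf1, were all higher in NPRA-/- and 0 were lower, against 14.1% and 1.29% of all probes and 3.65% (higher) of the brightest 20%.

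The differences were small for nearly all proteasome genes. The median of the fitted log2 changes, NPRA-/- minus NPRA+/+, was 0.07 over the 47 genes, against 0.21 over all probes and 0.05 over the brightest 20%. The shift of 0.21 applies to the whole array and depends on signal and scaling: over 5 equal bins of probes from dim to bright it was 0.63, 0.40, 0.22, 0.05 and 0.05, and it was 0.00 after quantile normalization. Within the brightest 20% it was not even: the brightest 5% of probes, with 15 of the 47 proteasome genes, had a median of 0.18, and the other three bins of 5% had medians of 0.01 to 0.03. Relative to the shift of 0.21 the median of the proteasome genes was -0.14, with 9 genes above and 38 below, and 0.02 after quantile normalization. The brightest 20% of probes were alike, with a median of -0.16 relative to that shift and 5463 of 7066 probes below it. The 95% interval of the change lay within 1 log2 unit either way, a 2-fold difference, for 44 of 47 genes (93.6%), against 61.0% of all probes and 84.4% of the brightest 20%. The exceptions were Psme3, Psma8 and Psmg2. The median standard error was 0.16 for the proteasome genes, 0.22 for all probes and 0.18 for the brightest 20%.

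**Figure D1:**
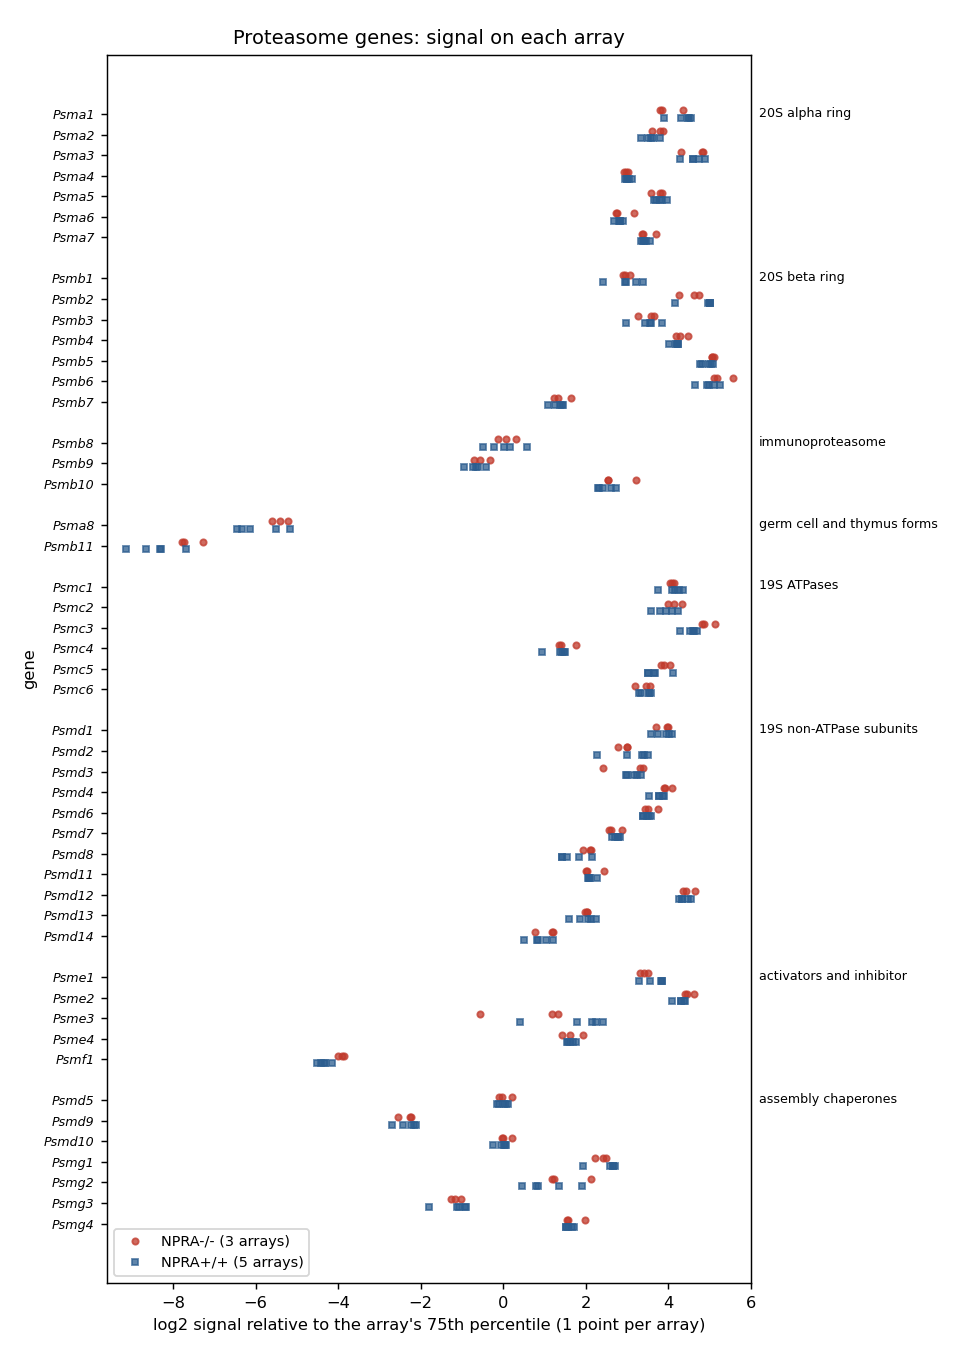
Log2 signal of the 48 proteasome genes on each array relative to the array's 75th percentile (x axis), 1 point per array, NPRA-/- and NPRA+/+ in separate colours and genes grouped by role (y axis). The 2 genotypes overlap for most genes, and Psme3 spreads most widely, from -0.56 to 2.42.

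**Figure D2:**
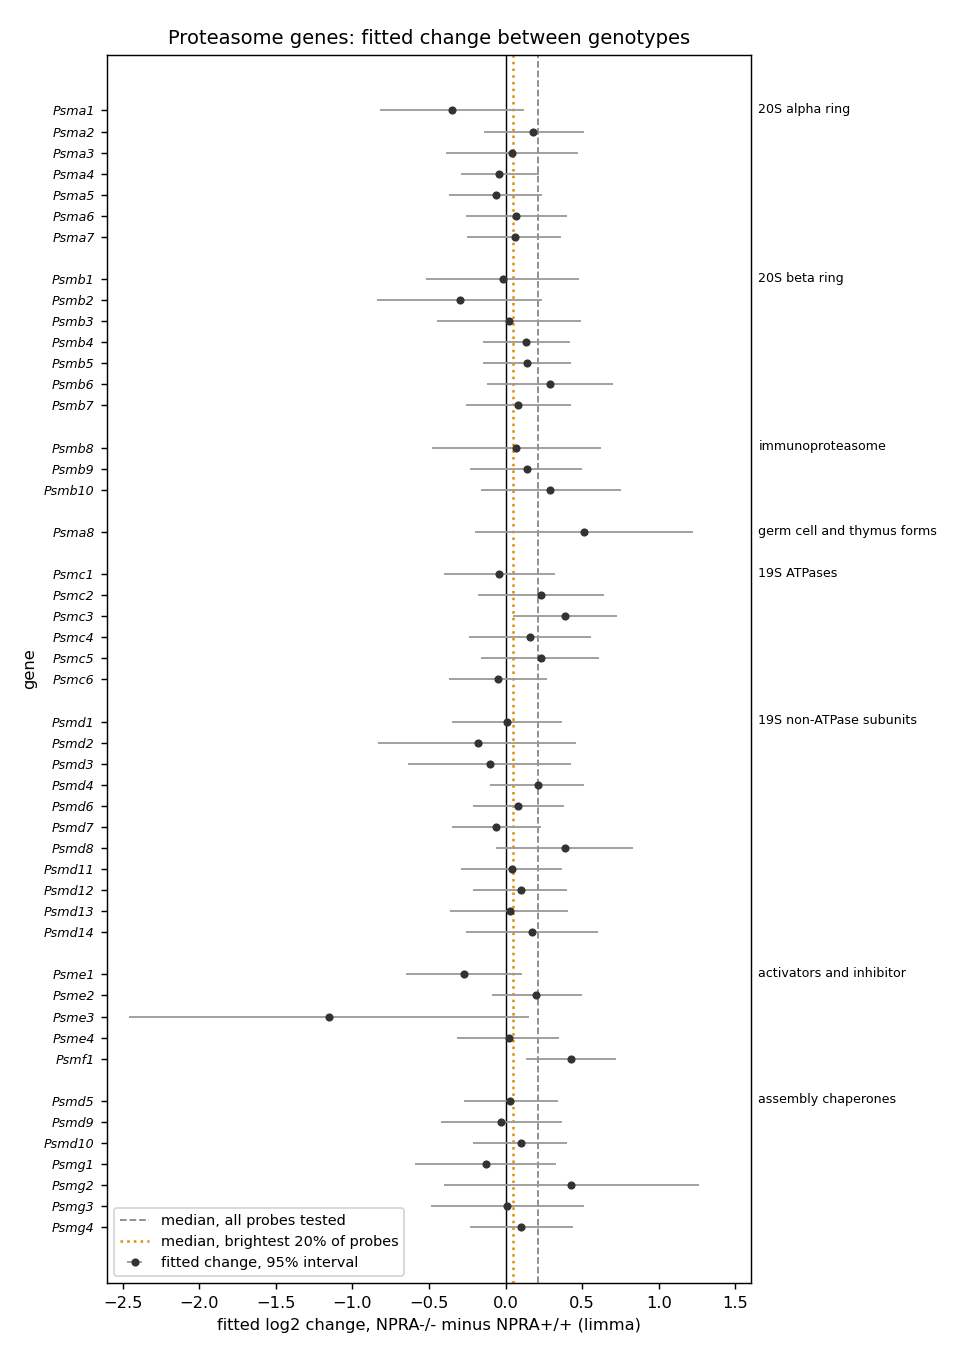
Fitted log2 change of the 47 genes tested (x axis, NPRA-/- minus NPRA+/+, limma) with its 95% interval, by gene and role (y axis); vertical lines mark 0 and the medians of all probes (0.21) and of the brightest 20% (0.05). Psmc3 and Psmf1 are the genes whose interval lies above 0, and none lies below.

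The 7 alpha subunits form the outer rings of the core, whose gate controls entry. None (0) passed, none of the 7 had genotypes without overlap, and their fitted changes ran from -0.35 (Psma1) to 0.18 (Psma2) with a median of 0.04, which was -0.07 after quantile normalization and -0.10 after cyclic loess. Psma1 gave 3.85, 3.79 and 4.35 in NPRA-/- and 3.90, 4.51, 4.54, 4.48 and 4.30 in NPRA+/+. The mean was 4.00 ± 0.31 (SD, n = 3) in NPRA-/- and 4.35 ± 0.27 (SD, n = 5) in NPRA+/+, and the fitted change was -0.35 ± 0.20 (SE; limma, adjusted p = 0.384). NPRA-/- replicates 1 and 2 were below all 5 NPRA+/+ arrays, with NPRA-/- replicate 3 among them. Within scan day 1 the difference was -0.46. Psma2 gave 3.60, 3.87 and 3.80 against 3.35, 3.59, 3.62, 3.79 and 3.52, with a fitted change of 0.18 ± 0.14 (limma, adjusted p = 0.527) and 0.23 within scan day 1. Its NPRA-/- arrays lay in the upper part of the NPRA+/+ range or just above it. The other alpha subunits, Psma3, Psma4, Psma5, Psma6 and Psma7, lay between -0.06 and 0.07.

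The 7 beta subunits of the inner rings carry the cutting sites in Psmb5, Psmb6 and Psmb7. Of the 7, 0 passed, 5 had a positive and 2 a negative fitted change, and the median was 0.08, with -0.03 after quantile normalization and -0.02 after cyclic loess. Psmb5, the chymotrypsin-like subunit, gave 5.12, 5.06 and 5.06 against 4.81, 5.08, 5.04, 4.99 and 4.78. The NPRA-/- arrays lay at the top of the NPRA+/+ range, with a fitted change of 0.14 ± 0.13 (limma, adjusted p = 0.596) and 0.00 within scan day 1. Psmb6, the caspase-like subunit, gave 5.57, 5.17 and 5.12 against 5.26, 5.12, 4.99, 4.95 and 4.65. NPRA-/- replicate 1 was above all others and the rest overlapped, a fitted change of 0.29 ± 0.18 (limma, adjusted p = 0.409) and 0.09 within scan day 1. Psmb7, the trypsin-like subunit, gave 1.64, 1.32 and 1.24 against 1.08, 1.45, 1.26, 1.37 and 1.43. Apart from NPRA-/- replicate 1, which was highest, and NPRA+/+ replicate 1, which was lowest, its arrays differed little; the fitted change was 0.08 ± 0.15 (limma, adjusted p = 0.811; -0.07 within scan day 1). Of the non-catalytic beta subunits Psmb2 had the lowest fitted change, -0.30 ± 0.24 (limma, adjusted p = 0.533; -0.31 within scan day 1). Its signals were 4.25, 4.62 and 4.74 in NPRA-/- and 4.16, 4.96, 5.02, 5.02 and 5.01 in NPRA+/+, where replicate 1 stood apart below the other 4. Psmb1, Psmb3 and Psmb4 lay between -0.02 and 0.13.

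The 3 immunoproteasome subunits shape the peptides that are presented to T cells. Their fitted changes were small and positive, 0.07 to 0.29 with a median of 0.14 (0.08 after quantile normalization, 0.07 after cyclic loess, -0.10 within scan day 1), and 0 of 3 passed or had genotypes without overlap. Psmb8 gave 0.30, -0.12 and 0.07 against -0.48, 0.16, 0.57, -0.22 and 0.03. The NPRA-/- arrays lay inside the NPRA+/+ range, with means of 0.08 ± 0.21 (SD, n = 3) and 0.01 ± 0.39 (SD, n = 5), a fitted change of 0.07 ± 0.24 (limma, adjusted p = 0.907) and a 95% interval from -0.48 to 0.62. Within scan day 1 both NPRA-/- arrays were below both NPRA+/+ arrays, with a mean difference of -0.39. Psmb9 gave -0.33, -0.71 and -0.57 against -0.95, -0.66, -0.41, -0.73 and -0.61. NPRA-/- replicate 1 exceeded every NPRA+/+ array and the others did not; the fitted change was 0.14 ± 0.16 (limma, adjusted p = 0.689; -0.10 within scan day 1). Psmb10 gave 3.23, 2.55 and 2.54 against 2.73, 2.43, 2.33, 2.60 and 2.30. Its NPRA-/- replicate 1 was highest and the others overlapped, a fitted change of 0.29 ± 0.20 (limma, adjusted p = 0.461; 0.16 within scan day 1).

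Immune cells are known for high immunoproteasome levels, so their markers are given beside these values. The 7 macrophage markers measured summed to 14.8 to 17.5 in NPRA-/- and 12.5 to 15.1 in NPRA+/+, and the 8 T cell markers to 2.93 to 5.27 and 2.56 to 5.18, with Cd3g not well above background on any array. Such sums weigh bright genes most. The brightest T cell marker was Thy1, at a fitted change of 0.21 ± 0.16 with overlapping genotypes. Cd4 was highest on the replicate 1 arrays, at a log2 signal of 0.36 in NPRA-/- and 1.25 in NPRA+/+. The 7 B cell markers summed to 0.968 to 1.06 and 0.787 to 1.01. The 6 neutrophil markers summed to 0.903 to 1.57 and 0.556 to 0.790 without overlap, with Ngp on no array. S100a9 and S100a8 were the brightest of these and weigh most in the sum. The median fitted change of the 5 neutrophil markers tested was 0.94, but 0.11 after quantile normalization and 0.13 after cyclic loess. The part of these immune cells in the immunoproteasome values was not tested. Among the 12 genes of interferon signalling and antigen presentation, 12 were tested, 0 passed either way, and the median fitted change was -0.01. B2m, the light chain of class I molecules, was at 0.00 ± 0.15 and Tap1, a subunit of the peptide transporter, at 0.02 ± 0.22. The gene of smallest p was Ifng, interferon gamma itself, at 0.73 ± 0.32 (limma, adjusted p = 0.264). Its probe was dim, at the 9.64th percentile of signal, and cleared the background threshold on 3 of 3 NPRA-/- and 3 of 5 NPRA+/+ arrays. In the 5% bin of signal that holds this probe the median change of all probes was 0.66. After quantile normalization the change of Ifng was 0.09.

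For each catalytic subunit and its immune counterpart, the log2 signal of the immune form minus that of the form it replaces was taken within each array. This compares RNA levels of whole tissue and does not show which subunit proteins the particles held. Since the 2 probes differ, only the change of this difference between genotypes is read. The Psmb8 minus Psmb5 difference was -4.82, -5.19 and -4.99 in NPRA-/- and -5.29, -4.93, -4.47, -5.21 and -4.75 in NPRA+/+. The means, -5.00 ± 0.18 (SD, n = 3) and -4.93 ± 0.34 (SD, n = 5), differed by -0.07, within the spread of either group. Psmb9 minus Psmb6 averaged -5.83 ± 0.11 (SD, n = 3) and -5.67 ± 0.37 (SD, n = 5), a change of -0.16. Psmb10 minus Psmb7 averaged 1.37 ± 0.19 (SD, n = 3) and 1.16 ± 0.30 (SD, n = 5), a change of 0.21. The 2 genotypes overlapped for each pair, and without NPRA+/+ replicate 1 the changes were -0.16, -0.29 and 0.33. Within scan day 1 they were -0.39, -0.19 and 0.23.

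**Figure D3:**
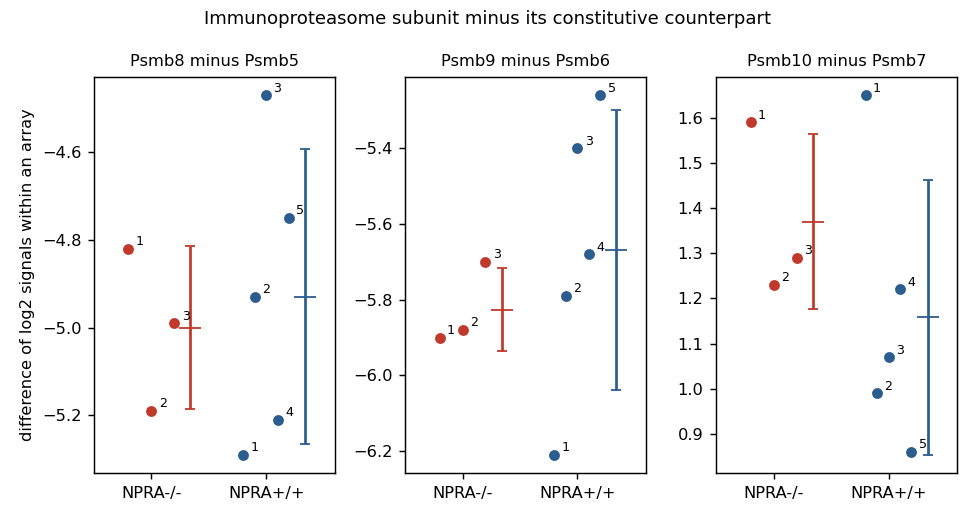
Log2 signal of an immunoproteasome subunit minus that of the catalytic subunit it replaces, within each array (y axis), by genotype (x axis), 1 panel per pair, 1 point per array, with the mean and SD. The genotypes overlap in all 3 panels, and the means differ by -0.07, -0.16 and 0.21.

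Both tissue-restricted forms gave dim signals. Psma8, the alpha subunit of male germ cells, gave -5.22, -5.40 and -5.61 against -5.16, -6.13, -5.52, -6.34 and -6.45, and cleared the background threshold on 3 of 3 arrays of NPRA-/- and 3 of 5 of NPRA+/+. The groups overlapped, and its fitted change of 0.51 ± 0.31 (limma, adjusted p = 0.404) was -0.13 after quantile normalization and -0.12 after cyclic loess and in the deposited series table. Psmb11, the beta subunit of the thymus cortex, was not well above background, so its signals of -7.78, -7.28 and -7.75 against -7.70, -8.30, -9.15, -8.31 and -8.65 carry no comparison.

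The 6 ATPases of the 19S cap form the ring that unfolds substrates and opens the core. Of the 6, 0 passed after adjustment, 1 had an unadjusted p under 0.05, and the median fitted change was 0.19 (0.16 after quantile normalization, 0.12 after cyclic loess, 0.07 within scan day 1). Psmc3 gave 5.14, 4.87 and 4.81 in NPRA-/- and 4.53, 4.70, 4.60, 4.63 and 4.29 in NPRA+/+. Every NPRA-/- array was above every NPRA+/+ array. The mean was 4.94 ± 0.18 (SD, n = 3) in NPRA-/- and 4.55 ± 0.16 (SD, n = 5) in NPRA+/+, and the fitted change was 0.39 ± 0.15 (1.31-fold; limma, unadjusted p = 0.0278, adjusted p = 0.197) with a 95% interval from 0.05 to 0.73. Within scan day 1 the difference was 0.19, also without overlap. The fitted change was 0.21 after quantile normalization, 0.25 after cyclic loess and 0.10 with each array scaled to its median. This probe was in the brightest 5%, where the median change of all probes was 0.18. A second Psmc3 probe gave 4.41, 3.84 and 3.80 against 3.84, 3.82, 3.88, 3.70 and 3.62. Its groups overlapped, with a fitted change of 0.25 ± 0.17 (limma, adjusted p = 0.466) and -0.03 within scan day 1. Psmc5 gave 4.05, 3.89 and 3.83 against 4.11, 3.68, 3.52, 3.65 and 3.51. All 3 NPRA-/- arrays exceeded NPRA+/+ replicates 2 to 5 while replicate 1 was highest of all; the fitted change was 0.23 ± 0.17 (limma, adjusted p = 0.498; 0.26 within scan day 1). Psmc1, Psmc2, Psmc4 and Psmc6 lay between -0.05 and 0.23.

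The 11 other subunits of the 19S cap build its base and lid, which bind ubiquitin chains and remove them. None (0) passed, 8 had a positive and 3 a negative fitted change, and the median was 0.04 (0.01 after quantile normalization, 0.00 after cyclic loess, -0.10 within scan day 1). Psmd8, a lid subunit, gave 2.13, 2.11 and 1.94 against 2.14, 1.55, 1.42, 1.83 and 1.43. As with Psmc5, NPRA+/+ replicate 1 was level with the NPRA-/- arrays and the other 4 were below them. The mean was 2.06 ± 0.10 (SD, n = 3) in NPRA-/- and 1.67 ± 0.31 (SD, n = 5) in NPRA+/+, and the fitted change was 0.39 ± 0.19 (limma, adjusted p = 0.313; 0.54 within scan day 1). Psmd4, a ubiquitin receptor, gave 4.10, 3.91 and 3.90 against 3.53, 3.87, 3.90, 3.77 and 3.78. The groups did not overlap, though the gap was below what 2 decimals show, and within scan day 1 the difference was 0.03; the fitted change was 0.21 ± 0.13 (limma, adjusted p = 0.439). The lowest fitted changes were -0.18 ± 0.28 for Psmd2 and -0.10 ± 0.23 for Psmd3, both scaffold subunits. Psmd14, the enzyme that removes ubiquitin chains, was at 0.17 ± 0.19, and Psmd1, Psmd6, Psmd7, Psmd11, Psmd12 and Psmd13 lay between -0.06 and 0.10.

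The 5 activators and inhibitors held both the lowest fitted change of all 47 genes and the smallest p. Psme3, the nuclear activator that stimulates degradation without ubiquitin, gave -0.56, 1.33 and 1.18 in NPRA-/- and 0.41, 2.15, 2.24, 1.78 and 2.42 in NPRA+/+. In each genotype replicate 1 was the lowest array. NPRA-/- replicates 2 and 3 were below NPRA+/+ replicates 2 to 5, but above NPRA+/+ replicate 1. The mean was 0.65 ± 1.05 (SD, n = 3) in NPRA-/- and 1.80 ± 0.81 (SD, n = 5) in NPRA+/+, and the fitted change was -1.15 ± 0.57 (0.450-fold; limma, adjusted p = 0.310) with a 95% interval from -2.46 to 0.15. Within scan day 1 the difference was -0.94 and the genotypes did not overlap. Over all 26 alternatives its fitted change stayed negative, from -1.50 to -0.54, the last without NPRA-/- replicate 1.

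Psme1 and Psme2 are the subunits of 1 activator, induced by interferon gamma. Psme1 gave 3.51, 3.40 and 3.31 against 3.30, 3.84, 3.85, 3.55 and 3.83, with NPRA+/+ replicate 1 lowest and the other 4 above all NPRA-/- arrays. Its fitted change was -0.27 ± 0.17 (limma, adjusted p = 0.421; -0.49 within scan day 1). Psme2 gave 4.63, 4.40 and 4.46 against 4.31, 4.37, 4.40, 4.31 and 4.08, and every NPRA-/- array was above every NPRA+/+ array, by less than 2 decimals show for replicate 2. Its fitted change was 0.20 ± 0.13 (limma, adjusted p = 0.430) and 0.05 within scan day 1. A second Psme2 probe had overlapping genotypes, with a fitted change of 0.08 ± 0.13 (limma, adjusted p = 0.797) and -0.05 within scan day 1. Neither partner passed the threshold. Psmf1, a proteasome inhibitor in the test tube, gave -3.85, -4.00 and -3.92 against -4.32, -4.35, -4.14, -4.42 and -4.52. Every NPRA-/- array was above every NPRA+/+ array. The mean was -3.92 ± 0.07 (SD, n = 3) in NPRA-/- and -4.35 ± 0.14 (SD, n = 5) in NPRA+/+, and the fitted change was 0.43 ± 0.13 (1.34-fold; limma, unadjusted p = 0.0101, adjusted p = 0.129). Its probe was among the dim ones, at the 26.6th percentile of signal, and its change was 0.01 after quantile normalization, -0.01 after cyclic loess and 0.02 in the deposited series table. Psme4, the large nuclear activator, was at 0.02 ± 0.15.

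The 7 assembly chaperones, which bring the core and the base of the cap together and are absent from the finished particle, had fitted changes from -0.13 (Psmg1) to 0.43 (Psmg2) with a median of 0.03 (0.02 after quantile normalization, 0.00 after cyclic loess). Of the 7, 0 passed and none had genotypes without overlap. Psmg2, which pairs with Psmg1 to build the alpha ring, gave 2.12, 1.22 and 1.18 against 1.90, 0.80, 0.46, 1.36 and 0.85. Replicate 1 was the highest array in each genotype, and the fitted change was 0.43 ± 0.36 (limma, adjusted p = 0.556; 0.57 within scan day 1). It was 0.12 without NPRA-/- replicate 1 and 0.28 without NPRA+/+ replicate 3. Psmd10, a chaperone of the 19S base, gave 0.21, -0.02 and 0.00 against -0.26, -0.06, 0.04, 0.03 and 0.07, a fitted change of 0.10 ± 0.13 (limma, adjusted p = 0.733). Psmg3, Psmg4, Psmd5 and Psmd9 lay between -0.03 and 0.10.

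**Figure D4:**
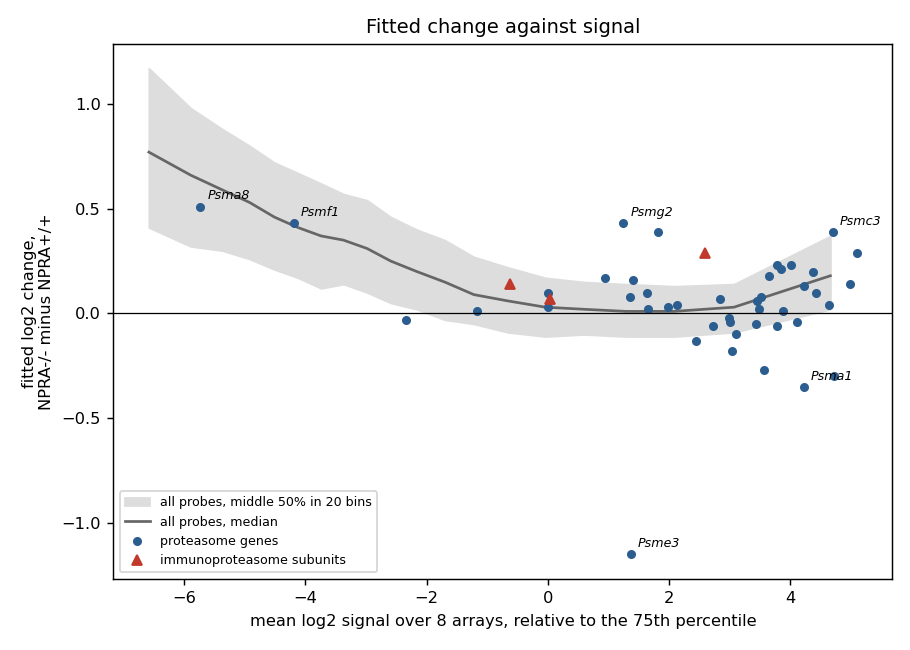
Fitted log2 change (y axis, NPRA-/- minus NPRA+/+) against mean log2 signal relative to the 75th percentile (x axis): points are the 47 proteasome genes, triangles the immunoproteasome subunits, and the line and band the median and middle 50% of all probes. The band's median drops from 0.77 at the dim end to 0.01 and rises again to 0.18 in the brightest 5% of probes, where 15 of the 47 proteasome genes lie.

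The arrays labelled replicate 1 carried most of the extreme values. NPRA-/- replicate 1 held the highest value of 24 of the 47 genes, and NPRA+/+ replicate 1 the lowest of 20; NPRA+/+ replicate 5 was lowest for 14 and NPRA+/+ replicate 3 highest for 12. Against the median of the other 6 arrays, the median deviation of a gene in either direction was 0.31 on both replicate 1 arrays and 0.07 to 0.12 on each of the rest. Those 6 arrays are part of this reference and the replicate 1 arrays are not, which favours smaller deviations on the 6. Deviations over 0.5 occurred for 7 genes on NPRA-/- replicate 1 and 13 on NPRA+/+ replicate 1, against 0 to 2 elsewhere. Both arrays had a scan day of their own, and results without them follow with those of scan day 1. Probes of 1 gene could differ there: a second Psmc1 probe gave 3.03, 2.05 and 1.88 against 2.83, 1.94, 1.81, 1.98 and 1.86, high on both replicate 1 arrays. The Psmc1 probe of highest mean gave 4.14, 4.08 and 4.04 against 3.76, 4.27, 4.36, 4.09 and 4.17 and did not share that pattern. Of the 11 genes with 2 probes each, the second Psmc2 probe was missing on 4 arrays because of outlier flags.

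Within scan day 1, the 2 NPRA-/- and 2 NPRA+/+ arrays did not overlap for 12 of the 47 genes in the higher and 23 in the lower direction. Of all probes 50.4% and 16.4% did so, and of the brightest 20% 27.7% and 32.7%. The genotypes also differed in scan time there, so the calls within that day cannot be tied to genotype alone. When limma was fitted to scan day 1 alone, Psmd8 was called higher (0.54, adjusted p = 0.0470), and Psme1 (-0.49, adjusted p = 0.0394) and Psme3 (-0.94, adjusted p = 0.0239) lower, while 15.6% of all probes were called higher and 1.37% lower. With array weights, which down-weight deviating arrays over all 8, limma called Psmd8 (0.49, adjusted p = 0.0123) and Psmf1 (0.37, adjusted p = 0.0191) higher and Psme1 (-0.43, adjusted p = 0.0101) and Psme3 (-0.94, adjusted p = 0.0217) lower, against 24.9% and 2.12% of all probes. Without both replicate 1 arrays, Psme3 was the 1 proteasome gene called, lower at -0.89 (limma, adjusted p = 0.0397), against 0.509% of all probes lower. After quantile normalization of scan day 1 no proteasome gene was called (0 of 47), nor were any of all probes (0), with 2 genes higher and 7 lower, and 9807 probes in either direction, at an unadjusted p under 0.05 in limma.

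**Figure D5:**
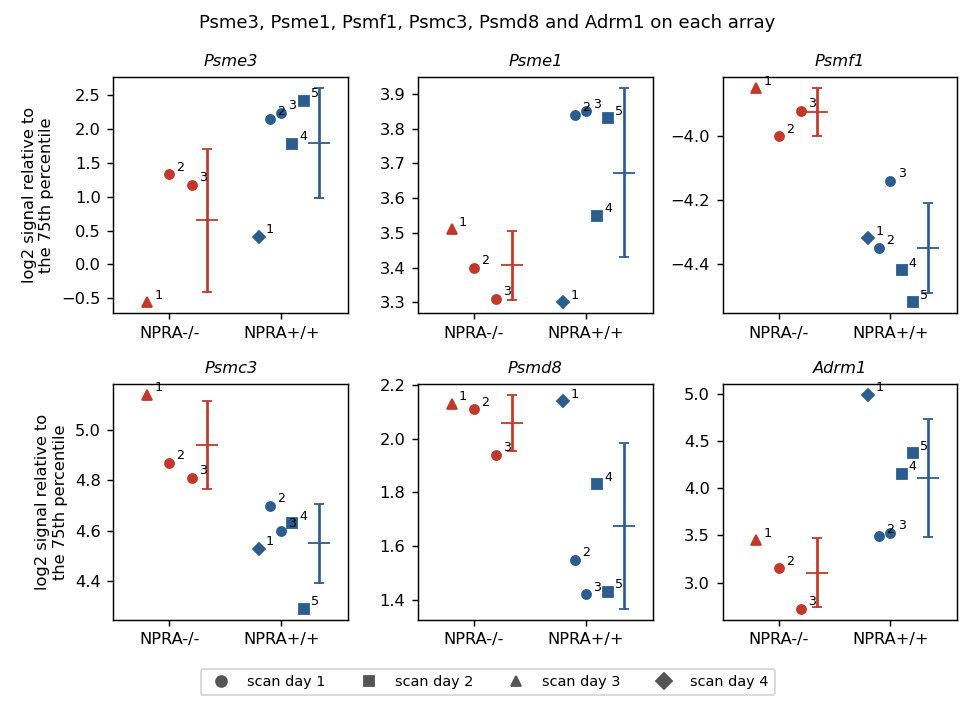
Log2 signal relative to the 75th percentile (y axis) of Psme3, Psme1, Psmf1, Psmc3, Psmd8 and Adrm1 on each array by genotype (x axis), with marker shapes for the 4 scan days. Psme3 ranges from -0.56 to 1.33 in NPRA-/- and from 0.41 to 2.42 in NPRA+/+, and the genotypes do not overlap for Psmf1, Psmc3 and Adrm1.

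Related genes were described from 6 lists, with 62 of their 64 genes tested and 0 past the threshold in either direction. The medians given here for these lists moved with the scaling: after cyclic loess they were -0.16, -0.02, 0.11, -0.14, -0.11 and, for the interferon list, -0.13, in the order in which the lists follow. Among 11 factors that bind or mature the proteasome, the median fitted change was -0.10. Adrm1, a ubiquitin receptor of the cap outside the naming rule, gave 3.45, 3.15 and 2.72 in NPRA-/- and 4.99, 3.49, 3.53, 4.15 and 4.37 in NPRA+/+. Every NPRA-/- array was below every NPRA+/+ array, with means of 3.11 ± 0.37 (SD, n = 3) and 4.11 ± 0.63 (SD, n = 5). The fitted change was -1.0 ± 0.36 (limma, unadjusted p = 0.0232, adjusted p = 0.182), and -0.58 within scan day 1. Pomp, which matures the beta ring, was at -0.13 ± 0.14, and Ecpas, which holds core and cap together, at 0.21 ± 0.14.

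Of 9 genes that control subunit transcription the median was 0.07. Nfe2l1 gave -1.42, -3.43 and -3.41 against -3.65, -3.49, -3.31, -3.59 and -3.46. NPRA-/- replicate 1 stood alone above the other 7 arrays, which lay close together; the fitted change was 0.75 ± 0.43 (limma, adjusted p = 0.382) and -0.02 within scan day 1. Maff, a partner of such factors, was at 0.28 ± 0.17. Of 7 genes for ubiquitin and its activating enzymes the median was 0.23. Ubb, a polyubiquitin gene, was measured on only 4 arrays, at 6.79, 5.50 and 5.23 in NPRA-/- and 6.67 in NPRA+/+ replicate 1, the others being missing for outlier flags. Its fitted change of -0.83 ± 0.70 rests on that 1 NPRA+/+ array, and its sign depends on the setting: it was 0.55 in the deposited series table, 0.63 with normexp background correction, 0.13 over the mean of its 2 probes and 0.12 with either replicate block. Rps27a, a ubiquitin-ribosomal fusion, was at 0.31 ± 0.18.

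Of 11 ubiquitin receptors and members of the p97 complex the median was 0.00; Vcp, the p97 segregase itself, was at 0.17 ± 0.11 without overlap between the genotypes and Ufd1, its cofactor, at 0.20 ± 0.17. Of 12 muscle ubiquitin ligases and their regulators the median was -0.05. Fbxo32 (atrogin) and Trim63, ligases of muscle wasting, were at -0.26 ± 0.24 and 0.10 ± 0.12. For Fbxo32 both NPRA-/- arrays of scan day 1 were below both NPRA+/+ arrays, with a difference of -0.71. Trim54 was at 0.28 ± 0.19 and Foxo3, a transcription factor of these ligases, at 0.32 ± 0.25. Foxo3 was called higher without NPRA+/+ replicate 1 (0.52; limma, adjusted p = 0.0340, against 11% of all probes), and also within scan day 1, with array weights and without both replicate 1 arrays. Its probe was dim, at the 34th percentile of signal, and its change was -0.06 after quantile normalization or cyclic loess and -0.05 in the deposited series table.

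With array weights, limma called Adrm1 (-0.81, adjusted p = 0.0346), Fbxo32 (-0.53, adjusted p = 0.0319) and Nploc4, a p97 cofactor (-0.31, adjusted p = 0.0469), lower. It called Maff (0.46, adjusted p = 0.0212), Rps27a (0.42, adjusted p = 0.0152) and Foxo3 (0.52, adjusted p = 0.00985) higher, against the 24.9% and 2.12% of all probes given above. The limma calls in scan day 1 alone were Rps27a (0.44, adjusted p = 0.0436) and Foxo3 (0.55, adjusted p = 0.0347) higher and Ifngr2, a chain of the interferon gamma receptor (-0.48, adjusted p = 0.0424), lower.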

How the data were processed

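The authors' deposited scanner files hold linear intensity per spot, background-subtracted within each array and not scaled between arrays, written by version 11.0.1.1 of Agilent Feature Extraction, per the file headers. They also hold spot flags of 0 or 1, per the file headers. The deposited series table holds log2 values whose normalization no source used here gives. The median of its first column was 7.04. Each column's rank correlation with the array of its sample was at least 0.9994. A probe was found for 39429 of the table's 39485 entries.

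Control spots were left out, outlier-flagged spots were made missing, and each probe's spots were averaged on the log2 scale. Each array's 75th percentile (775.2 to 1252.7 before log2) was subtracted. Probes well above background on at least 3 arrays were tested (35329, with 4100 not). The RefSeq gene table of GRCm38.p6 named 27234 of 39429 probes by transcript accession; the array design names another build, so coordinates are those of RefSeq promoters only. A linear model with genotype as its term was fitted to every probe with limma 3.58.1 (R 4.3.3, moderated by eBayes), with two-sided p-values adjusted by Benjamini-Hochberg across the probes tested and a threshold of 0.05; every adjusted or unadjusted p of a gene is from limma. Precision is limited by how few arrays there are.

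The members and lists were chosen with earlier results of these data known. Values on every array were given for the catalytic and immunoproteasome subunits, the 2 genes of smallest p in every other role group, and fitted changes for the 2 genes of smallest p of each related list with Nfe2l1, Pomp, Ubb, Fbxo32 and Trim63. Added after their values were seen were Psmc1, Psme1, Psme2, Psmb11, B2m, Tap1, Nploc4 and Ifngr2, and the array values of Adrm1, Nfe2l1 and Ubb. Paaf1, Cd68 and Ly6g were not matched to a probe and Foxo4 was not tested; 2 genes that this rule takes are not reported here.

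Samples of equal number deviated from their genotype's mean with correlations of 0.63, 0.28 and 0.36 by repetition number and 0.35, 0.12 and 0.30 by source name number (which gives 3 NPRA+/+ arrays the number 1). The labels tie no number to both genotypes. Alternatives were other scalings, background correction (normexp with an offset of 50 on the median spot signal), filters, the deposited table, blocks, scan day 1 alone, array weights, variance trend, averaging the probes of a gene, and leaving out each array. On simulated data with 35329 probes, log2 changes of 1, 2, 3 and 4 were called in 40%, 76%, 82% and 96% of probes, with 6 of 153 calls false. The simulated noise was independent between probes and arrays. It lacked the shift with signal and the deviating arrays described above, so these rates need not hold for the measured data.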

Additional observations from a re-analysis of the deposited data

Results flagged for a closer look

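The 33 genes taken by the naming rule and measured on all 5 NPRA+/+ arrays, which leaves out Ubb, were checked for an array far from the others, where the gap to the nearest array had to exceed 0.71 of the range. Chance alone gives about 1 in 20 such groups, and 4 of 33 genes met this. Psmb2 on NPRA+/+ replicate 1 was lowest at a log2 signal of 4.16, the nearest array being at 4.96. Psmc5 on the same array was highest at 4.11 (nearest 3.68), and so was Foxo3 at -2.96 (nearest -3.81). Trim54 was highest on NPRA+/+ replicate 3 at 1.45 (nearest 1.08).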

How the results depend on the processing

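Over 26 alternatives, 2 of them chosen after seeing the data (the 75th percentile over probe means, and leaving out both replicate 1 arrays), the count of proteasome genes called was 0 in either direction except in 3. Scan day 1 alone called 1 higher and 2 lower, array weights 2 and 2, and leaving out both replicate 1 arrays 0 and 1. Related genes called were 2 higher and 1 lower within scan day 1, 3 and 3 with array weights (the values are given with those genes), and 1 higher (Foxo3) without both replicate 1 arrays. Leaving out single replicates gave 0 to 1 related genes higher, the 1 without NPRA+/+ replicate 1, and 0 otherwise.

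With the replicate number as a block, 0 proteasome and 0 related genes were called in either direction under either numbering; the block changed no other call of these genes, while calls over all probes went from 113 higher and 10 lower to 0 and 0 by repetition number and 1 and 21 by source name number. Calls over all probes were also unstable otherwise: 18 of the alternatives gave 0, 3 higher and 0 lower remained with probes above background on all arrays, 183 and 10 came without the filter, 3901 and 187 without NPRA+/+ replicate 1, 3954 and 180 without both replicate 1 arrays, 5494 and 485 in scan day 1 alone, and 8808 and 749 with array weights. The cause was not tested.

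The median of the proteasome genes relative to all probes, -0.14, was -0.33 with normexp and between -0.24 and 0.02 otherwise. Of the 47 genes, 13 kept the sign of their fitted change throughout, 5 positive (Psmb6, Psmb10, Psmc3, Psmd8, Psmg2) and 8 negative (Psma1, Psma4, Psmb2, Psmd2, Psmd7, Psme1, Psme3, Psmg1). For Psmb6, Psmb10 and Psmd7 the change nearest 0 was 0.00 to 2 decimals (with median scaling for Psmb6, adjusted p = 0.993, and Psmb10, adjusted p = 0.995), so that sign carries nothing there. A second Psmg1 probe had a fitted change of 0.00 ± 0.14, and 0.20 within scan day 1. Dim signal limits Psma8, Psmb11, Psmf1, Foxo3 and Ifng.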

Other observations

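The summed signals of the remaining marker lists, as multiples of the 75th percentile, were as follows. The 7 endothelial markers spanned 58.2 to 65.1 in NPRA-/- and 52.8 to 71.6 in NPRA+/+. The 7 fibroblast markers spanned 88.0 to 114 and 75.3 to 82.6, without overlap. That sum weighs bright genes most, and Dcn was the brightest. Of the 7 genes, 4 had a positive and 3 (Pdgfra, Lum and Tcf21) a negative fitted change. Their median was 0.33, and 0.09 after quantile normalization. The 7 mesothelial markers, of the outer lining of the heart, spanned 1.24 to 1.81 and 0.691 to 1.02, also without overlap, and Msln was called higher (2.48 ± 0.36 on the log2 scale; limma, adjusted p = 0.0498). After quantile normalization or cyclic loess 0 of all probes were called, so Msln was not. The median fitted change of the 7 was 2.06, and 1.45 and 1.39 after these scalings. Wt1, the brightest of them, was at 0.23 ± 0.18 with overlapping genotypes. Upk3b was well above background on 1 of 5 NPRA+/+ arrays. The 7 erythroid markers spanned 47.4 to 98.3 and 32.1 to 69.4, with Epb42 well above background on no array. Their part in the proteasome values was not tested.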
